A study of Mus musculus with 10 samples.

Results

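Of the 77076 chromatin regions measured in these regulatory T (Treg) cells, 873 lost accessibility in effector Treg (eTreg) cells relative to central Treg (cTreg) cells when the cells were wild type (WT), but kept an intermediate or higher level in eTreg cells that lack Fntb. Accessibility was measured by ATAC-seq, in which a transposase cuts open DNA, and is given as CPM, the count of a region divided by all counts of the library and multiplied by 1000000. The members were selected on the measured CPM of the WT cTreg, WT eTreg and FntbKO eTreg libraries. A member had a WT cTreg mean of at least 3 CPM and at least 7/4 of the WT eTreg mean, with the lowest WT cTreg library above the highest WT eTreg library. These steps left 50957 regions, then 2436, and then 1907, called WT closings here. A WT closing became a member when the mean of the Fntb-deficient (FntbKO) eTreg libraries lay above the square root of the product of both WT means, the middle of the closing on a log scale. The 1034 other WT closings, at or below that middle, are the remaining closings.

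The cells of every group were sorted out of spleen and lymph nodes, and the mice were mixed bone marrow chimeras, whose blood cells grow from a mixture of donor marrows. The groups were FntbKO eTreg with 2 libraries, FntbKO cTreg with 2 libraries, WT eTreg with 3 libraries and WT cTreg with 3 libraries. The labels used here do not give the promoter or Cre that deleted Fntb, the number, sex or age of the animals, or the sort gates. They also do not say that libraries came from separate animals, so the p-values measure the spread between these libraries, which may be technical.

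The product of Fntb is the β subunit of farnesyltransferase, which attaches a farnesyl lipid to RAS, the nuclear lamins and other proteins so that they reach membranes. cTreg cells resemble naive T cells, recirculate through lymphoid organs by means of CCR7, and depend on factors such as BACH2, FOXP1 and LEF1. eTreg cells have met antigen, express effector and homing molecules, and close many of the elements that serve the quiescent state. Open regions away from gene starts are often enhancers, whose closing accompanies this change of state.

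Few members lay at gene starts, so promoter sequence was at hand for only some of them. Of the 873 members, 22 (2.52%) overlapped the window from 250 bases before to 50 bases after a RefSeq start, against 3.68% of the remaining closings and 13.3% of all tested regions. The 3 sequences printed here are the 250 bases before the start of a transcription factor of quiescent T cells (Foxp1), of an ETS-family factor (Elf4) and of a collagen receptor kinase (Ddr1), shown because their members had FntbKO cTreg libraries above, overlapping and below those of WT cTreg. All 3 lie on the minus strand of GRCm38.p6 and are written 5′ to 3′ along the gene, and member regions covered 221, 106 and 217 of the 250 bases. Capitals mark matches to CTTTGAA (TCF/LEF) in either orientation in Foxp1, to TGANTCA (AP-1) and GGGCGG (KLF/SP) in Elf4, and to GGGCGG in Ddr1. Foxp1 is at chr6:99266516-99266765, Elf4 at chrX:48463133-48463382 and Ddr1 at chr17:35700591-35700840.
Foxp1: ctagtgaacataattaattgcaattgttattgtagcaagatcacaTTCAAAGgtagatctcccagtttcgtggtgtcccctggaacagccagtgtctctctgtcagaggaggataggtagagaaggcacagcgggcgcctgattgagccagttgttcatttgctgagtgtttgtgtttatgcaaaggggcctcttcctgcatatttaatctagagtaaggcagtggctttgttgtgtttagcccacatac
Elf4: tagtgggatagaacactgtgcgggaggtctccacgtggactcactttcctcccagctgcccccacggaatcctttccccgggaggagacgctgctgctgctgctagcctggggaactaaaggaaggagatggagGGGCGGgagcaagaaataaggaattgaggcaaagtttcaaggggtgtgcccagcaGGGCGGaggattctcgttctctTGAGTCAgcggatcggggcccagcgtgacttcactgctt
Ddr1: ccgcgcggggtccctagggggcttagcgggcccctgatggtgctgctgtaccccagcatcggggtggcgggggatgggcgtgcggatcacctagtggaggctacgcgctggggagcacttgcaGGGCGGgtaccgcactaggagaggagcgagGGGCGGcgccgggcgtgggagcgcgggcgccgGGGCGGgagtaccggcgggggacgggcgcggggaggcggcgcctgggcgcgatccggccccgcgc

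Across the whole windows of 300 bases, motifs were searched on both strands, each motif by itself even where matches of different motifs overlap. KLF/SP letters stood in 42.3% of the 26 windows that members overlap, in 43.9% of the 41 windows of remaining closings and in 35.7% of all 32851 windows. TCF/LEF letters stood in 3.85%, 7.32% and 5.14% of the same sets of windows, and AP-1 letters in 7.69%, 7.32% and 7.81%. ETS letters, CCGGAAG, were found in 7.69% of member windows, in no window of a remaining closing and in 8.86% of all windows. NFAT letters, TGGAAA, were found in 15.4%, 17.1% and 21.4%. Starts on chromosome 18, which holds 36 members, were not used here.

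Most members were distal. Of the 873 members, 528 (60.5%) lay inside the span of a protein-coding gene without touching a start window, 254 (29.1%) lay outside a span but within 100 kb of a gene, and 69 (7.90%) lay farther away. The shares were 56.4%, 30.2% and 9.77% for the remaining closings and 50.6%, 30.6% and 5.55% for all tested regions. More than 10 kb separated 73.0% of members, 71.8% of remaining closings and 59.4% of all tested regions from any start, among regions on chromosomes with starts. Members had a median width of 380 bp, against 360 bp for the remaining closings. Members and remaining closings thus had similar positions, and both lay farther from starts than the whole set.

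**Figure D1:**
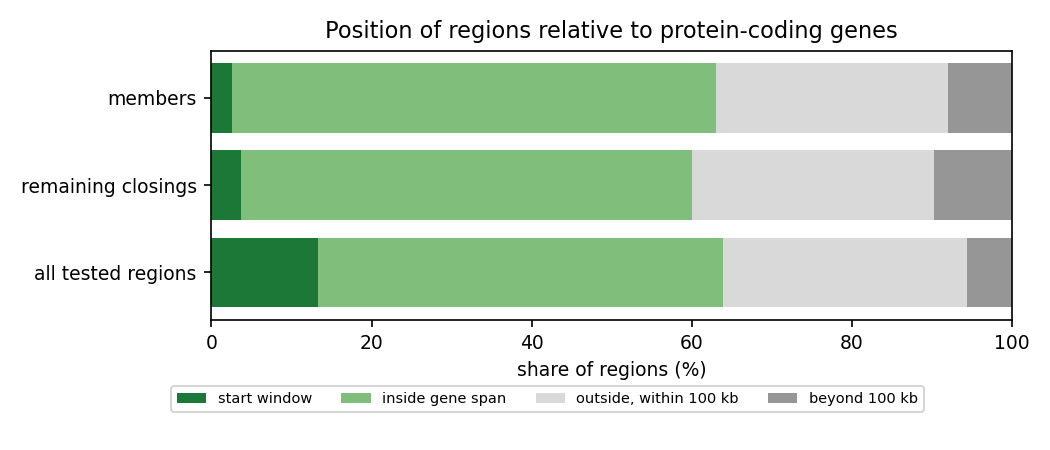
Share of regions (%, horizontal axis) in each of 4 positions relative to protein-coding genes, for members, remaining closings and all tested regions; starts on chromosome 18 were not used. Start windows made up 2.52% of members, 3.68% of remaining closings and 13.3% of all tested regions.

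The total counts of the 10 libraries were between 5058328 and 15328775. The window at the Fntb start, chr12:76837192-76837915, had 9.49 ± 2.80 CPM in FntbKO eTreg, 12.1 ± 1.18 in FntbKO cTreg, 29.9 ± 0.998 in WT eTreg and 33.2 ± 3.26 in WT cTreg libraries (SD, n = 2, 2, 3 and 3), and it was lower in FntbKO in both subsets (edgeR's quasi-likelihood test, Benjamini-Hochberg adjusted p = 4.46e-05 in eTreg and 6.34e-05 in cTreg). Foxp3, the defining factor of Treg cells, was open in every group. Its most open region, chrX:7583812-7584418, had 30.6 and 34.9, 28.7 and 35.3, 29.4, 31.8 and 28.1, and 33.5, 26.5 and 27.9 CPM, in the same order of groups. Its other regions were less open and less even. Their means were 5.98, 4.51, 3.43 and 4.56 CPM at chrX:7586529-7586780 and 2.17, 2.12, 1.20 and 2.61 CPM at chrX:7593355-7593757. By edgeR neither was called in any comparison. Of the marker genes of other cell types, the B cell genes Ms4a1 and Cd79b, the myeloid genes Lyz2 and Csf1r, the dendritic gene Xcr1 and the erythroid gene Hba-a1 had no region. Other markers of these lists did have regions. Mean summed levels, in the same order of groups, were 239, 201, 242 and 226 CPM for Cebpb (myeloid). They were 124, 103, 145 and 130 CPM for Zbtb46 (dendritic) and 29.7, 21.1, 32.0 and 31.5 CPM for Pax5 (B cell). The purity of the cells was not tested.

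The levels that chose the members are given here as a description. The median over members was 4.94 CPM in FntbKO eTreg, 6.57 in FntbKO cTreg, 2.67 in WT eTreg and 5.55 in WT cTreg libraries. For the remaining closings it was 2.96, 5.26, 2.61 and 5.56 CPM. The 2 sets therefore had almost the same WT levels, as the shared WT criteria allow, and the FntbKO eTreg level, which divides them, was the main difference. Selecting on the WT groups inflates the WT closing, whose median was -1.01 on the log2 scale at members and -1.02 at remaining closings. Low levels were common, with 368 members under 5 CPM and 41 at 20 CPM or more in WT cTreg libraries.

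**Figure D2:**
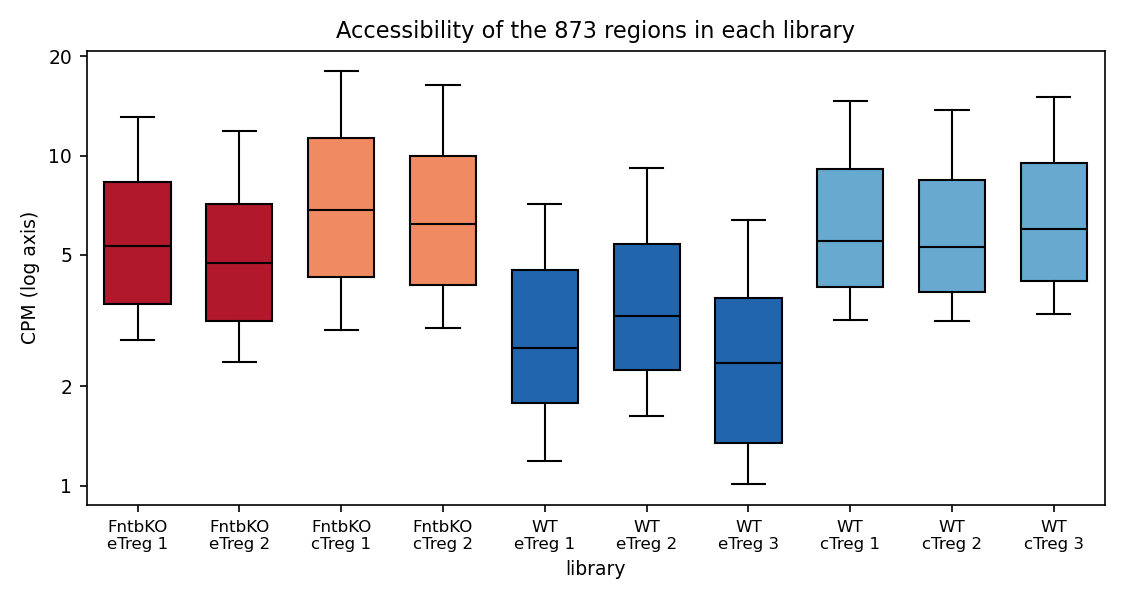
CPM of the 873 members (vertical log axis) in each of the 10 libraries; boxes span the 25th to the 75th percentile over members with the median as a line, and whiskers the 10th to the 90th. Medians were 5.34 and 4.74 in FntbKO eTreg, 6.84 and 6.20 in FntbKO cTreg, 2.61, 3.26 and 2.35 in WT eTreg, and 5.51, 5.27 and 5.99 CPM in WT cTreg libraries.

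How much of the closing was missing varied widely. On a scale where 0 is the WT cTreg level and 100 the WT eTreg level, both as log2 of group means, the FntbKO eTreg level had a median of 24.1 over members, with 80% of members between -8.91 and 45.4. In 421 members (48.2%) it lay between 25 and 50, below the WT cTreg mean but above the middle. In 297 (34.0%) it lay between 0 and 25, close to the WT cTreg level. In 155 (17.8%) the FntbKO eTreg mean was above the WT cTreg mean. The extreme was a region 3.76 kb from Slain2, which encodes a microtubule-binding protein, at -90.9.

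**Figure D3:**
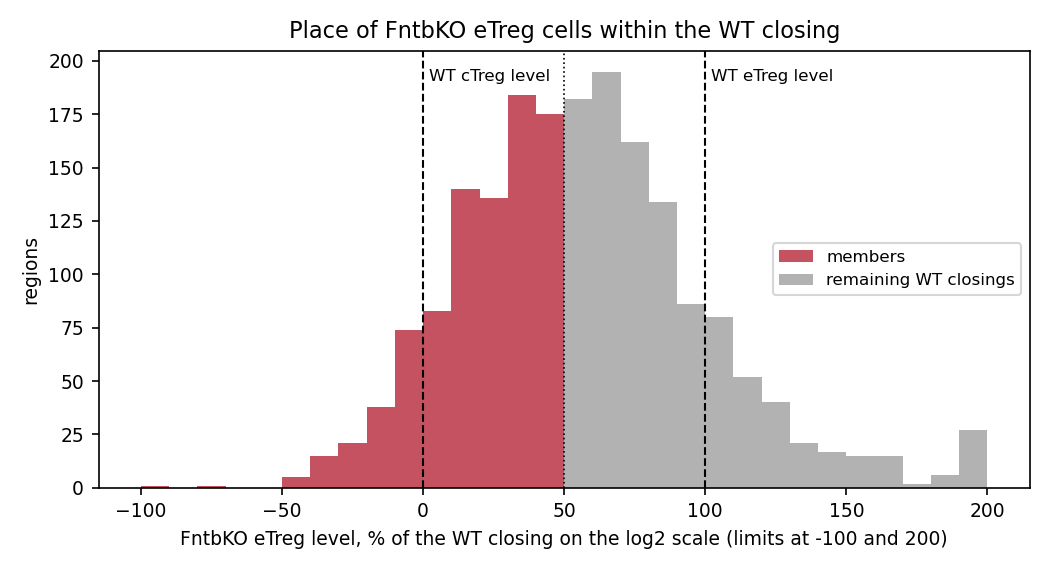
Number of regions (vertical axis) by the place of the FntbKO eTreg mean within the WT closing (horizontal axis, %; 0 is the WT cTreg and 100 the WT eTreg level on the log2 scale, and values outside -100 to 200 are drawn at these limits). Members end at 50 by the rule, and no gap separates members from remaining closings.

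The dividing line had no gap on either side. Just inside it lay regions at Bcl2, Satb1 and Kdm3b, with FntbKO eTreg means at 1.001 times the middle. Just outside it lay regions at Zfp704 and Gm7244 and a region far from any gene, at 0.998 times the middle. At the level threshold the members at Grm6, Satb1 and Hs2st1 were just inside, and regions at Slc22a2 and Foxp1 were just outside. At the WT fold threshold the members at Ctnnd1, Stard5 and Irf2 were just inside, and regions at Samhd1 and St6galnac5 were just outside, at 1.749 times (below the threshold of 7/4). A region of Tank (chr2:61497784-61498056) failed the WT criterion of no overlap because its lowest WT cTreg library, 3.86 CPM, lay just below its highest WT eTreg library, 3.87 CPM.

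The 2 FntbKO eTreg libraries did not place all members alike. Both lay above the middle in 538 members (61.6%), only library 1 in 236 (27.0%) and only library 2 in 99 (11.3%). When members were chosen without library 1, 786 regions passed, and the unused library 1 lay above the middle in 68.4% of them, against 51.8% of all WT closings. When members were chosen without library 2, 988 passed, and the unused library 2 lay above the middle in 54.5% of them, against 41.2% of all WT closings. The unused library was set against the same WT middle that chose the regions, so the choice by itself can raise these shares. How much was not tested, and the shares are a description. Of all libraries left out, WT eTreg library 2 changed the number of regions most. Without it 1983 regions passed, of which 835 were members, and in 59.7% of the 1983 its own level lay above the middle. The fewest members were kept without WT eTreg library 3, when 728 regions passed and 540 of them were members.

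Several genes of the quiescent T cell state held more than 1 member. A gene was assigned where its span overlapped a member, or otherwise as the nearest span within 100 kb, which is a position and not a shown target. Of the 873 members 804 had such a gene, 672 genes had at least 1, 91 had 2 or more and 23 had 3 or more. Bach2, which encodes a repressor that keeps T cells quiescent, had 9 members among 14 WT closings and 86 regions. Satb1, a chromatin organizer of T cells, had 7 of 9 WT closings among 31 regions, and Foxp1 had 5 of 13 among 88 regions. Over all regions 45.8% of WT closings were members, and the share at Foxp1 was below that. Btg1, an antiproliferative factor of resting lymphocytes, had 4 of 4, and Med13l, a subunit of the Mediator kinase module, had 4 of 6. Members lay within 50 kb of another member in 197 cases (22.6%), against 24.6% of the remaining closings, and the longest runs held 4. To 152 genes both a member and a remaining closing were assigned.

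At Bach2 the FntbKO eTreg level varied among the 9 members. The region chr4:32393228-32393608 had 6.72 and 7.90 CPM in FntbKO eTreg, 11.01 and 11.9 in FntbKO cTreg, 4.03, 4.48 and 1.68 in WT eTreg and 8.95, 8.43 and 8.34 CPM in WT cTreg libraries. The groups did not overlap, with FntbKO cTreg highest and WT eTreg lowest. The most open member, chr4:32481628-32482121, had 13.8 and 12.3, 18.8 and 20.9, 9.85, 9.37 and 8.07, and 19.3, 13.0 and 16.0 CPM in the same order of groups. There the FntbKO eTreg libraries lay between WT eTreg and FntbKO cTreg, and the log2 change from FntbKO cTreg was -0.61 ± 0.22 (SE), with an edgeR adjusted p of 0.163. None of the 9 Bach2 members passed that test, and their FntbKO eTreg levels stood at -17.5 to 49.4 on the scale of the WT closing.

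Satb1 held the strongest WT closing of all members, 12.0 times between the WT means. That region, chr17:51779966-51780258, had 2.77 and 1.09 CPM in FntbKO eTreg, 4.56 and 1.76 in FntbKO cTreg, 0.237, 0.407 and 0.336 in WT eTreg and 3.58, 4.92 and 3.32 CPM in WT cTreg libraries. Every FntbKO eTreg library lay above every WT eTreg library and below every WT cTreg library, and library 1 was above library 2 in both FntbKO groups. A more open Satb1 member, chr17:51735193-51736030, had 13.6 and 8.49, 20.1 and 13.8, 8.07, 7.13 and 3.70, and 13.2, 8.43 and 12.1 CPM in the same order of groups. Its FntbKO eTreg libraries overlapped the WT cTreg libraries. Where the first member sat inside the Satb1 span, this one lay 157 bases outside it.

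The Foxp1 start region, chr6:99266168-99266736, whose bases are printed above, was open in FntbKO eTreg libraries at 9.09 and 5.92 CPM, in FntbKO cTreg at 11.7 and 10.6, in WT eTreg at 2.61, 5.50 and 3.70 and in WT cTreg at 8.54, 7.73 and 7.49 CPM. FntbKO eTreg exceeded WT eTreg in every library, and FntbKO cTreg exceeded WT cTreg in every library. The log2 difference between FntbKO and WT cTreg was 0.51 ± 0.27 (edgeR adjusted p = 0.461), so it did not pass. A second Foxp1 member, chr6:99394482-99395359, had 11.1 and 10.7, 19.998 and 14.9, 6.17, 8.04 and 4.37, and 14.9, 13.7 and 10.8 CPM in the same order. Both regions showed the same order of groups, with the lowest levels in WT eTreg.

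**Figure D4:**
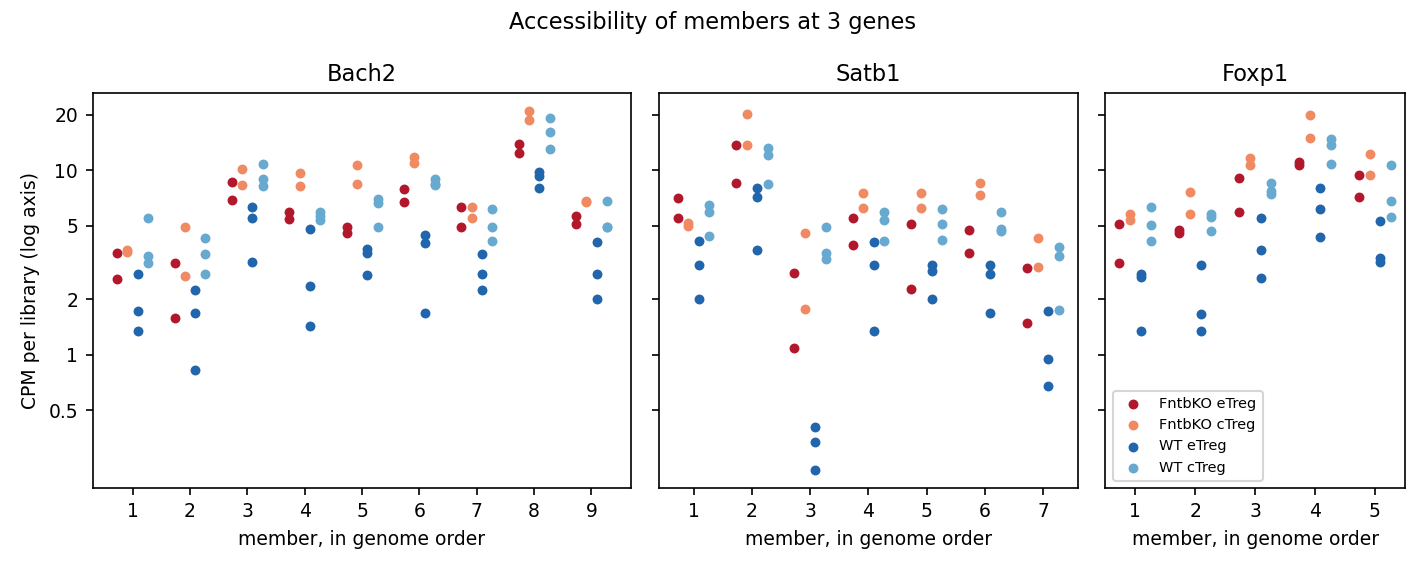
CPM in each library (points, vertical log axis) at the members of Bach2 (9), Satb1 (7) and Foxp1 (5), numbered along the genome. FntbKO cTreg libraries are often highest and WT eTreg libraries lowest, with FntbKO eTreg libraries between them; the third Satb1 member is the one whose WT means differ 12.0 times.

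At genes for homing and adhesion the missing closing differed between members. Ccr7, the chemokine receptor that brings naive cells into lymph nodes, had a member 15.6 kb away at chr11:99170670-99171340 with 40.1 and 45.7 CPM in FntbKO eTreg, 39.5 and 44.6 in FntbKO cTreg, 23.7, 26.3 and 17.7 in WT eTreg and 44.4, 32.8 and 43.4 CPM in WT cTreg libraries. Here FntbKO eTreg and FntbKO cTreg overlapped, with a log2 difference of 0.03 ± 0.16 (edgeR adjusted p = 0.956), and only the WT eTreg libraries stood apart. Dpp4, a surface peptidase of T cells, had a member at chr2:62352009-62352452 with, in the same order of groups, 31.2 and 28.8, 49.1 and 40.4, 19.2, 19.95 and 19.8, and 44.4, 32.3 and 36.8 CPM. The FntbKO eTreg libraries stood between those of WT eTreg and WT cTreg, at 35.3 on the scale of the WT closing.

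Btg1 had members on both sides of the gene, each more than 40 kb away. The region chr10:96693826-96694160 had 25.3 and 25.4 CPM in FntbKO eTreg, 27.0 and 25.2 in FntbKO cTreg, 11.5, 13.9 and 12.4 in WT eTreg and 25.8, 15.8 and 28.2 CPM in WT cTreg libraries. Chr10:96535394-96535851 had 28.9 and 31.0, 27.9 and 28.3, 15.3, 19.8 and 16.5, and 28.2, 35.1 and 27.6 CPM. In both, the WT eTreg libraries lay below all others, and FntbKO eTreg was close to FntbKO cTreg, with log2 differences of -0.04 ± 0.20 and 0.09 ± 0.16 (edgeR adjusted p = 0.953 and 0.845). The other 2 Btg1 members were less open and had lower FntbKO eTreg means, with log2 differences of -0.31 ± 0.35 and -0.71 ± 0.35 (edgeR adjusted p = 0.733 and 0.333). None of the 4 passed. The Lef1 member chr3:131160297-131160528, in the gene of a Wnt-pathway transcription factor of naive T cells, had 12.1 and 8.20, 7.52 and 10.0, 5.58, 6.31 and 3.20, and 9.37, 8.43 and 9.63 CPM. WT eTreg alone stood apart there. The other 2 Lef1 members had lower FntbKO eTreg means, with log2 differences from FntbKO cTreg of -0.64 ± 0.41 and -0.88 ± 0.50 (edgeR adjusted p = 0.496 and 0.422), so none of the 3 passed.

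TGF-beta signalling, which maintains Treg cells through the receptors TGFBR1 and TGFBR2 and the mediator SMAD4, was represented by 8 members of 9 WT closings, at Tgfbr2 (3), the co-receptor gene Tgfbr3 (4) and Smad4 (1). The Tgfbr2 region chr9:116187404-116187814 had 8.11 and 8.49 CPM in FntbKO eTreg, 15.3 and 12.5 in FntbKO cTreg, 3.32, 5.40 and 4.37 in WT eTreg and 11.2, 14.05 and 14.01 CPM in WT cTreg libraries. FntbKO eTreg lay between the WT groups without overlap, and the log2 difference from FntbKO cTreg was -0.73 ± 0.26 (edgeR adjusted p = 0.154). The Smad4 member, inside the gene span, had 8.90 and 4.74, 11.3 and 7.83, 2.37, 3.56 and 3.03, and 8.54, 6.32 and 7.70 CPM in the same order of groups. At this member FntbKO eTreg library 1 exceeded every WT cTreg library and library 2 none of them.

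T cell receptor and costimulation genes had 4 members among 6 WT closings. Camk4, a calcium-dependent kinase, had a member in its span with 15.4 and 15.6 CPM in FntbKO eTreg, 19.6 and 17.7 in FntbKO cTreg, 5.70, 9.16 and 6.39 in WT eTreg and 11.8, 18.3 and 14.3 CPM in WT cTreg libraries. The FntbKO eTreg libraries were inside the range of the WT cTreg libraries. Cblb, a ubiquitin ligase that restrains costimulation, had a member at chr16:52072060-52072402 with 9.88 and 9.87, 15.8 and 16.3, 5.93, 7.33 and 5.38, and 11.02, 10.9 and 11.4 CPM. Its 4 groups did not overlap, with FntbKO cTreg highest. The fourth member lay 32.2 kb from Cd28, the costimulatory receptor.

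Other lists differed in their share of members. RAS and ERK pathway genes, whose GTPases are substrates of farnesyltransferase, had 2 members of 9 WT closings, in Rasa2, a RAS GTPase-activating protein, and near Dusp5, an ERK phosphatase. PI3K, AKT and mTOR genes had 2 of 8, both near Pik3r1, the regulatory subunit of PI3K. Genes of the AP-1, BATF and IRF families had 11 of 16, of which 9 were those of Bach2 and the others were in Irf2 and 53.1 kb from Jun. Prenylation and lamin genes had 1 of 3, and all 3 of these WT closings lay in Fntb itself. One remaining closing, chr12:76844676-76845058, was lower in FntbKO than in WT in both subsets (edgeR adjusted p = 0.0448 in eTreg and 0.00154 in cTreg). Its means were 1.58 CPM in FntbKO eTreg, 2.18 in FntbKO cTreg, 4.89 in WT eTreg and 9.68 in WT cTreg libraries. Lymphocyte transcription factors had 8 of 11, at Bcl11b, Ets1, Ikzf3, Klf6, Nr4a3 and Tox. Effector Treg genes had 2 of 3, in Nt5e, the ectoenzyme CD73, and in Rora. Across all regions 45.8% of WT closings were members.

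Central Treg and naive T cell genes held 32 members of 56 WT closings, among them those of Bach2, Bcl2, Ccr7, Foxp1, Lef1, Nsg2 and Satb1. Over all 515 tested regions of these genes, 8 were lower and 2 higher in eTreg than in cTreg among FntbKO libraries (edgeR, adjusted p under 0.05), where 0.39% of all tested regions were lower and 0.966% higher. Among WT libraries 45 were lower and 2 higher, where 1.61% of all tested regions were lower and 1.83% higher. Their median log2 difference was -0.24 among FntbKO and -0.34 among WT libraries, against -0.0042 and -0.010 over all tested regions. Between FntbKO and WT cTreg none passed by edgeR, where 0.19% of all tested regions were higher and 0.378% lower, and DESeq2 also called none. At an unadjusted p under 0.05 by edgeR, 40 were higher and 10 lower. That count was not made over all tested regions, so nothing is read from it. The median log2 difference between FntbKO and WT cTreg was 0.12, against -0.0059 over all tested regions. Effector Treg genes had the opposite direction among their 412 regions. By edgeR 15 were higher and none lower in eTreg than in cTreg among FntbKO libraries. At an unadjusted p under 0.05 there were 88 higher and 21 lower, again without a count over all tested regions. DESeq2 called 17 higher and none lower, and 1231 of all regions in either direction. Among WT libraries 26 of these regions were higher and 4 lower by edgeR. The edgeR shares of all tested regions for both comparisons of eTreg with cTreg are given above.

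FntbKO cTreg libraries were not used by the rule, although each comparison with them shares an arm that was. Within FntbKO cells the eTreg mean was below the cTreg mean at most members, but few single regions passed the test given next. The median log2 ratio of eTreg to cTreg means was -0.38 at members and -0.82 at remaining closings, against -0.0025 over all tested regions. The FntbKO eTreg mean was above the FntbKO cTreg mean in 167 members (19.1%) and 68 remaining closings (6.58%). Both FntbKO eTreg libraries lay below both FntbKO cTreg libraries in 446 members (51.1%, with 24.6% of all tested regions), and above them in 46 (5.27%, with 24.1%). Choosing a high FntbKO eTreg level makes this difference smaller by itself, and how much was not tested.

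By edgeR, 15 members (1.72%) were lower in FntbKO eTreg than in FntbKO cTreg at an adjusted p under 0.05, where 0.39% of all 76216 tested regions were lower. Of the remaining closings 84 (8.12%) were. None of the members was higher, where 0.966% of all tested regions were. At an unadjusted p under 0.05 by edgeR, 7 members were higher and 189 lower. That count was not made over all tested regions, so nothing is read from it. DESeq2 called 21 members lower and none higher, and 1231 of all regions in either direction. The members called lay at Nrp1, Iigp1, Tmem64, Mre11a, Ntn4, Mxd1, Zcchc24, Trp53inp1, Bcl2l11, Xxylt1, Cd226, Rrp1 and Uchl3, and 2 were farther than 100 kb from any gene. None of the 15 passed with every library left out in turn. Leaving out FntbKO cTreg 1 or FntbKO eTreg 2 gave 0, FntbKO eTreg 1 gave 1, WT cTreg 3 gave 6 and WT eTreg 1 gave 9. Leaving out WT cTreg 1 gave 23, WT cTreg 2 gave 28 and FntbKO cTreg 2 gave 27.

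Nrp1, a surface receptor of thymus-derived Treg cells, had a member at chr8:128473817-128474273 with 34.8 and 32.1 CPM in FntbKO eTreg, 61.1 and 48.5 in FntbKO cTreg, 20.9, 27.6 and 22.03 in WT eTreg and 40.2, 41.8 and 48.0 CPM in WT cTreg libraries. It was -0.71 ± 0.15 on the log2 scale in FntbKO eTreg against FntbKO cTreg (edgeR adjusted p = 0.0165), and the groups were in the order FntbKO cTreg, WT cTreg, FntbKO eTreg and WT eTreg without overlap. The call was lost without FntbKO cTreg 1, FntbKO eTreg 1 or FntbKO eTreg 2. Mxd1, an antagonist of MYC, had a member at chr6:86644708-86645543 with 32.4 and 26.8, 47.2 and 46.6, 20.1, 27.2 and 16.8, and 37.6, 42.8 and 41.4 CPM in the same order of groups, a log2 difference of -0.68 ± 0.16 (adjusted p = 0.0332). Cd226, an activating receptor, had a member 16.7 kb away with 45.9 and 38.4, 69.3 and 58.6, 27.8, 28.4 and 18.8, and 48.1, 41.97 and 43.6 CPM, a difference of -0.61 ± 0.16 (adjusted p = 0.0451). At Mxd1 and Cd226 the FntbKO cTreg libraries were above every other library.

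The largest difference among those with a gene was at Ntn4, which encodes the secreted protein netrin 4. The region chr10:93729663-93730298 had 4.35 and 3.55 CPM in FntbKO eTreg, 12.9 and 8.81 in FntbKO cTreg, 2.14, 2.44 and 1.35 in WT eTreg and 5.51, 5.62 and 7.92 CPM in WT cTreg libraries. Its log2 difference between FntbKO eTreg and FntbKO cTreg was -1.46 ± 0.35 (edgeR adjusted p = 0.0332). FntbKO eTreg lay 40.6 along the WT closing, and FntbKO cTreg lay above WT cTreg in every library. The FntbKO cTreg level was thus the highest of the 4 groups at this member.

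FntbKO cTreg libraries had somewhat more signal at members than WT cTreg libraries. The median log2 ratio of FntbKO to WT cTreg means was 0.15 at members, -0.084 at remaining closings and -0.026 over all tested regions. The members' median was 0.080 without FntbKO cTreg 1. The FntbKO cTreg mean was the higher in 566 members (64.8%), 444 remaining closings (42.9%) and 47.3% of all tested regions. Both FntbKO cTreg libraries were above the WT cTreg mean in 404 members (46.3%) and both below it in 191 (21.9%). That count was not made for remaining closings or all tested regions. Every FntbKO cTreg library lay above every WT cTreg library in 205 members (23.5%, with 14.1% of all tested regions), and below in 69 (7.9%, with 15.6%). The median ratio was 0.066 for members of 3 to 5 CPM in WT cTreg libraries, 0.19 from 5 to 10, 0.21 from 10 to 20 and 0.24 from 20 CPM. At remaining closings of the same levels it was -0.15, -0.068, -0.011 and 0.13, so it was higher at higher levels in both sets. How far the choice of high WT cTreg and high FntbKO eTreg levels sets these medians was not tested. The members' median was smaller than the spread of single members, whose 10th and 90th percentiles were -0.37 and 0.59. The spread between libraries, from the variances of the libraries' median log2 CPM in the 2 groups, was 0.14. The members' median of 0.15 was close to that spread.

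**Figure D5:**
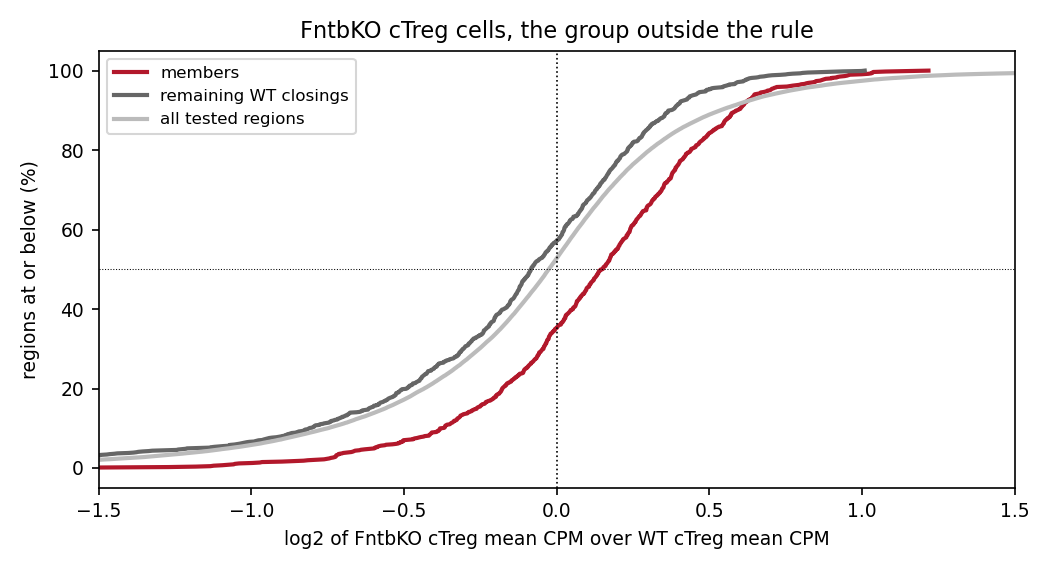
Cumulative share of regions (%, vertical axis) by the log2 ratio of FntbKO cTreg to WT cTreg mean CPM (horizontal axis, drawn from -1.5 to 1.5). The curve of the members lies to the right of both others over most of its range, with medians of 0.15 for members, -0.084 for remaining closings and -0.026 for all tested regions.

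Single regions rarely passed this test. By edgeR, 2 members (0.229%) were higher in FntbKO than in WT cTreg at an adjusted p under 0.05, where 0.19% of all tested regions were higher, so the share was near that of all regions. No member was lower, where 0.378% of all tested regions were. At an unadjusted p under 0.05 by edgeR, 85 members were higher and 13 lower. That count was not made over all tested regions, so nothing is read from it. DESeq2 called 2 members higher and none lower, and 557 of all regions in either direction. Mbd5, a gene of a methyl-CpG-binding domain protein, had a member at chr2:49176675-49177833 with 35.3 and 26.6 CPM in FntbKO cTreg against 14.1, 12.8 and 21.2 CPM in WT cTreg libraries, a log2 difference of 0.94 ± 0.21 (edgeR adjusted p = 0.0339). Iigp1, which encodes an interferon-induced GTPase, had a member 6.81 kb away with 23.1 and 24.6 CPM in FntbKO cTreg against 10.5, 13.9 and 13.5 CPM in WT cTreg libraries, a log2 difference of 0.94 ± 0.21 (edgeR adjusted p = 0.0338). The groups did not overlap at either member, but neither passed when WT cTreg 1, WT cTreg 2 or FntbKO cTreg 1 was left out, and 1 passed when WT cTreg 3 or FntbKO cTreg 2 was. The Iigp1 member had 14.2 and 8.49 CPM in FntbKO eTreg, a log2 difference of -1.12 ± 0.24 from FntbKO cTreg (edgeR adjusted p = 0.0204).

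Among members of at least median accessibility, the 5 highest ratios of FntbKO to WT cTreg were at Mbnl3, Mre11a, Gata1, Ddx18 and Reps1. Mbnl3, an RNA-binding splicing regulator, had 13.2 and 11.1 CPM in FntbKO cTreg against 6.06, 5.62 and 5.56 CPM in WT cTreg libraries at chrX:51145117-51145475, a log2 difference of 1.09 ± 0.28 (edgeR adjusted p = 0.0748). Gata1, the factor that drives erythroid development, had a member 1.16 kb away at chrX:7977818-7978314 with 16.1 and 13.6 CPM in FntbKO cTreg against 8.82, 5.27 and 7.70 CPM in WT cTreg libraries, a difference of 1.03 ± 0.35 (adjusted p = 0.208). Both sets of libraries stood apart, yet neither region passed. The summed level of all 7 regions of the 5 erythroid marker genes was 33.6 to 39.9 CPM in FntbKO eTreg, 47.8 to 48.6 in FntbKO cTreg, 31.3 to 36.0 in WT eTreg and 39.6 to 42.7 CPM in WT cTreg libraries, of which the Gata1 member is 1, and the part of such cells was not tested.

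Lower FntbKO cTreg levels were seen at a minority of members. Of the 5 lowest ratios, Ctnnd1, which encodes p120-catenin, had a member 4.34 kb away at chr2:84582204-84582761 with 7.78 and 9.52 CPM in FntbKO cTreg against 18.3, 12.5 and 17.7 CPM in WT cTreg libraries, a log2 difference of -0.88 ± 0.24 (edgeR adjusted p = 0.0852). FntbKO eTreg libraries had 16.6 and 10.7 CPM there, above both FntbKO cTreg libraries. The others were at Colca2, Arhgap26, Dym and a region far from any gene. The Ddr1 start region printed above belonged to the same kind, with 5.64 and 6.52 CPM in FntbKO cTreg against 11.6, 8.60 and 7.38 CPM in WT cTreg libraries (log2 difference -0.57 ± 0.29, adjusted p = 0.432). At the Elf4 start region the groups overlapped, with 7.52 and 5.41 against 8.27, 8.25 and 7.49 CPM. In all, the FntbKO cTreg mean fell under the middle of the WT closing in 58 members (6.64%).

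Markers of naive conventional CD4 T cells, which cTreg cells share, held 8 of the members, among them those at Ccr7 and Lef1. Over all 105 tested regions of the 7 marker genes the summed level was 1299 to 1309 CPM in FntbKO eTreg, 1450 to 1503 in FntbKO cTreg, 1082 to 1298 in WT eTreg and 1369 to 1428 CPM in WT cTreg libraries. The 2 FntbKO eTreg libraries thus were just above the highest WT eTreg library. Summed levels of other markers were 81.6 to 106, 66.7 to 84.1, 109 to 116 and 92.6 to 109 CPM for B cells (no member), and 277 to 284, 305 to 311, 289 to 331 and 317 to 340 CPM for CD8 T or NK cells (1 member, Eomes), in the same order of groups. They were 328 to 345, 267 to 298, 360 to 390 and 296 to 366 CPM for myeloid cells (1 member, Cebpb), and 220 to 237, 189 to 222, 238 to 262 and 214 to 273 CPM for dendritic cells (1 member, Flt3). In bulk libraries a larger share of cells of another state and a higher level per cell cannot be told apart, and the part of these markers in the members' levels was not tested.

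The comparisons that the rule used are listed for completeness, and nothing is read from their counts. By edgeR 362 members (41.5%) were lower in WT eTreg than in WT cTreg, with 1.61% of all tested regions (and 1.83% higher), and 390 remaining closings (37.7%) were. Leaving out WT cTreg 3 gave 59, WT eTreg 3 gave 62, WT eTreg 1 gave 100 and WT cTreg 1 gave 117. By edgeR 20 members (2.29%) were higher in FntbKO than in WT eTreg, with 0.181% of all tested regions (and 0.169% lower). Leaving out FntbKO eTreg 2 gave 0, FntbKO eTreg 1 or WT eTreg 3 gave 3, WT eTreg 1 gave 5, WT cTreg 3 gave 12 and WT cTreg 2 gave 40. The groups did not overlap there in 683 members (78.2%, with 15.7% of all tested regions). The interaction of genotype and subset was called in 0 of 873 members, with 0% of all tested regions, by edgeR and by DESeq2, and 196 members by edgeR and 141 by DESeq2 had an unadjusted p under 0.05, all in the direction that the rule selects.

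The most open members showed how far single regions reached. Ostm1, which encodes a lysosomal and osteoclast protein, had the highest mean, at chr10:42698984-42699447 in its span, with 51.0 and 55.6 CPM in FntbKO eTreg, 75.8 and 69.1 in FntbKO cTreg, 30.6, 32.8 and 23.9 in WT eTreg and 51.0, 48.5 and 59.7 CPM in WT cTreg libraries. FntbKO eTreg was level with WT cTreg, and FntbKO cTreg was above both. The log2 difference of FntbKO eTreg from FntbKO cTreg was -0.44 ± 0.14 (edgeR adjusted p = 0.0987) and that of FntbKO from WT cTreg was 0.46 ± 0.12 (adjusted p = 0.0821). The other members among the 10 most open were at Cd226, Nrp1, Ccr7, Dpp4, Mxd1, Exoc6b, Cmss1, Eif4e3 and Znrf1.

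Fntb itself had a member inside its span, at chr12:76873098-76873358. It had 2.37 and 4.84 CPM in FntbKO eTreg, 4.56 and 6.26 in FntbKO cTreg, 1.90, 2.24 and 0.673 in WT eTreg and 5.10, 5.44 and 4.28 CPM in WT cTreg libraries. The FntbKO eTreg libraries were above those of WT eTreg, and library 2 lay inside the WT cTreg range.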

How the data were processed

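The authors deposited a table of raw counts per region for 10 ATAC-seq libraries, and 1 other column of it was not used. The submitters' processing notes name the build mm10 (GRCm38) and, with no order given, bedtools, MACS2 2.1.1, Trimmomatic 0.36, SAMtools and Picard 2.9.4; the aligner is not given in the sources used here. Between 66.7% and 78.9% of nonzero counts in a library were even, so mates may have been counted separately and halved counts were tried. Coordinates are printed as deposited, and the table does not say whether they start at 0 or 1. CPM is the count divided by the library total times 1000000. Counts were tested with edgeR 4.0.16 (R 4.3.3; TMM, filterByExpr, quasi-likelihood, 1 mean per group, 10 libraries, 6 residual degrees of freedom) and Benjamini-Hochberg adjustment over 76216 regions, which included all 873 members, and with DESeq2 1.42.0 as an alternative. Log2 differences carry the SE of the fit. The fit was also run on simulated counts in which the changed regions were drawn at random and none was selected by the rule. That run therefore does not bear on the calls at members. Genes, starts and sequences are RefSeq's, GRCm38.p6. The members and the gene lists were chosen with earlier results of these data known. Regions named are the 10 most open, up to 3 per list, the 5 highest and 5 lowest ratios of FntbKO to WT cTreg, those of the 5 genes with most members (6 genes tied at 4, of which Btg1 and Med13l were taken by alphabetical order), and those beside each threshold. The regions described at Lef1, Smad4, Cd28, Jun, Slain2, Ntn4, Elf4, Ddr1, Mbd5 and Iigp1, and all others called, were named after their values were seen. Some genes are not reported here.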

Additional observations from a re-analysis of the deposited data

How the results depend on the processing

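The count of members depends on the rule's settings. It was 1524 with a minimum of 1 CPM, 505 with 5 CPM, 1538 with a WT fold of 1.5, 461 with a fold of 2, 538 when both FntbKO eTreg libraries had to pass, and 728 to 1983 with single libraries left out. Members called in FntbKO eTreg against cTreg numbered 40 with halved counts, 39 with the replicate block, 35 with only the 2 compared groups and 0 to 28 with a library left out. For FntbKO against WT in cTreg the counts were 8 with halved counts, 1 with 2 groups and 0 to 2. For FntbKO against WT in eTreg they were 33 by DESeq2, 44 with the block, 39 with 2 groups and 0 to 40, and for WT eTreg against cTreg 59 to 371. Leaving out WT cTreg 2 and FntbKO cTreg 1 together, chosen after seeing the data, gave 0, 0 and 50 for the first 3 comparisons and a median log2 ratio of 0.059 for FntbKO over WT cTreg. The causes were not tested, other than fewer libraries. Calls over all regions moved in the same direction as those of members. For FntbKO eTreg against cTreg they were 1033 in the main fit, 1758 with halved counts, 2480 with the block and 1412 with 2 groups. For FntbKO against WT in cTreg they were 433, then 616 with halved counts and 247 with 2 groups. For FntbKO against WT in eTreg they were 267, then 409 by DESeq2, 655 with the block and 802 with 2 groups. Same-numbered libraries deviated together with correlations of -0.078 to 0.18, above 0.1 in 5 of 13 pairs. For pairs with other numbers they were -0.18 to 0.099, above 0.1 in 0 of 24. With 2 libraries in each FntbKO group, deviations mirror each other, so these pairs are not independent. The main fit had no block because the labels do not say what a number shares, and whether numbers mark pairs remains unknown. With the block the counts were 3 for cTreg and 470 for WT. Interaction calls stayed at 0 under every alternative run. The share of members with a gene was 92.1% within 100 kb, 87.4% within 50 kb and 62.5% by span alone. The median log2 ratios kept their sign, at 0.080 to 0.21 for FntbKO over WT cTreg and -0.49 to -0.32 for FntbKO eTreg over cTreg with single libraries left out. For single regions, 3661 results stayed as they were, called or not called, 137 lost a call and 50 gained one. Where either fit called the region, 0 changed sign, and sign changes of uncalled regions were not counted. Low counts limit most members, with a median of 408 counts over 10 libraries.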

Other observations

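Runs of neighbouring members drew attention outside the lists. The 4 members of Xxylt1, a gene of a xylosyltransferase that acts on Notch, lay within 35.1 kb of chromosome 16 with no remaining closing among them. The 4 members of Zfhx3, a homeobox transcription factor, lay within 81.9 kb of chromosome 8, and their median log2 ratio of FntbKO eTreg to cTreg was -0.072, against -0.75 for the 4 members of Ntn4. At Pip4k2a, which encodes a phosphoinositide kinase, 3 members lay within 10.2 kb, with a median ratio of -0.23. These loci were chosen after their values were seen, and none of these medians was tested.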
